A study of Mus musculus with 4 samples.

Results

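Vascular smooth muscle cells (VSMC) of the fetal mouse leg were picked out of 4 single-cell RNA-sequencing libraries by their transcripts. A cell was taken as VSMC when it held at least 2 UMIs of Myh11 (smooth muscle myosin heavy chain) and at least 5 of Acta2 (smooth muscle α-actin), and no UMI of Pdgfra, Cdh5 or Myog, which mark fibro-adipogenic progenitors (FAPs), endothelial cells and differentiating muscle cells. A UMI (unique molecular identifier) stands for 1 captured RNA molecule. The choice was made among cells in which 1000 to 6000 genes and 1000 to 25000 UMIs were counted and mitochondrial genes gave under 8%. Of 41741 deposited cell barcodes, 36969 passed this filter, and 636 of these were VSMC. The WT libraries gave 189 (replicate 1) and 129 (replicate 2), and the KO libraries 179 and 139.

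The libraries came from leg muscles of fetuses at E18.5, 2 of wild type (WT) and 2 of knockout (KO) genotype for SYISL, a long non-coding RNA whose gene overlaps an intron of Synpo2 (synaptopodin 2) in the sense direction. Per the study's methods, the fetuses came from heterozygous matings, WT and KO were littermates, each fetus was dissected separately and genotyped from its tail, and the tissue was digested with trypsin and DNase I. The knockout was in the germ line and so not restricted to VSMC. The number of fetuses behind each library is not given in the sources used here, so every p-value measures the spread between libraries only.

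VSMC lie in the wall of arteries, arterioles and veins, contract to set the width of the vessel, and lay down the elastic and collagenous layers of its wall. Pericytes, the other mural cells, sit on capillaries and share with VSMC the receptor Notch3 and the receptor Pdgfrb, through which endothelial cells recruit both. In the fetus VSMC still divide and secrete matrix while their contractile proteins build up, and the transcription factor SRF with its partner myocardin switches on much of the contractile programme through a DNA element known as the CArG box.

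The study asked how SYISL acts on muscle fibre formation, and here KO was compared with WT within VSMC, library by library. A level is a gene's UMIs per 1000000 UMIs (CPM), summed over the VSMC of a library, a scale that counts molecules and needs no correction for gene length. The 4 sums held 1540817 to 2170790 UMIs, and the median VSMC held 11134 and 11617 UMIs in WT and 9152 and 9986 in KO, so WT cells held the more UMIs. No cell barcode was shared between the VSMC of any pair of libraries. One library stood apart: in VSMC, Xist was counted 1320 times in KO replicate 2 and 0 times in the other libraries, whereas Uty, a Y-linked gene, was counted 0 times there and 174 to 262 times in the others. Fold changes of named genes that moved by over 1.5 times without KO replicate 2 are therefore given without it too.

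The label held up against the markers that took no part in the selection. Tagln (transgelin, an actin-binding protein of smooth muscle) stood at 7056 and 6948 in WT against 6697 and 6555 in KO CPM, against 12.1 to 37.9 in pericytes and 59.1 to 86.9 in all other kept cells. Myl9, the regulatory light chain of smooth muscle myosin, stood at 2013 and 2021 in WT against 2018 and 2003 in KO, against 297 to 399 in pericytes. Actg2, the γ-actin of smooth muscle, stood at 591 and 713 in WT against 581 and 692 in KO and at 0 to 2.01 in pericytes. In each library all 3 markers were far above the other kept cells, and their WT and KO levels lay close together. After thinning each cell to 3000 UMIs, a UMI of Tagln was found in 90.4 to 91.6% of VSMC and in 3.79 to 6.45% of pericytes. Pericytes were taken as cells with at least 1 UMI of Pdgfrb, at least 2 of Rgs5 and under 5 of Acta2, with the same exclusions, which gave 155 and 135 in WT and 163 and 158 in KO. The Acta2 limit sets the classes apart, so differences between them are described and not tested.

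At the border of the selection the markers were lower. VSMC with 2 or 3 UMIs of Myh11, 20 to 41 cells a library, held 2186 to 2914 Tagln CPM. Cells with 1 UMI of Myh11, 17 to 29 a library and left out, held 599.9 to 1570.1. The cells taken with 5 to 7 UMIs of Acta2 were 0 and 3 in WT and 2 and 2 in KO. Their Tagln was 31.0 in WT replicate 2 and 337 and 191 in KO, lower than in the left-out cells with 1 UMI of Myh11. Cells left out with 3 or 4 UMIs of Acta2 were 1 in WT replicate 1 and 1 in KO replicate 1, with Tagln at 0. Of the cells that met both lower limits, 210 and 140 in WT and 213 and 167 in KO, those with Pdgfra UMIs removed 9 and 6 in WT and 21 and 15 in KO. Scrublet marked 3, 2, 5 and 2 VSMC of WT replicates 1 and 2 and KO replicates 1 and 2 as doublets, and they were kept.

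The promoters of 2 contractile genes are shown because each holds a match to the CArG box, and because Acta2 helped select the cells and Myl9 is one of their markers. They are the 250 bases before the RefSeq start site, 5′ to 3′ on the strand of the gene, with capitals marking a CArG box (CC, a core of 6 bases, GG) whose core holds at most 1 G or C. Acta2 lies on the minus strand and Myl9 on the plus strand of GRCm38.p6.
Acta2, chr19:34255374-34255623: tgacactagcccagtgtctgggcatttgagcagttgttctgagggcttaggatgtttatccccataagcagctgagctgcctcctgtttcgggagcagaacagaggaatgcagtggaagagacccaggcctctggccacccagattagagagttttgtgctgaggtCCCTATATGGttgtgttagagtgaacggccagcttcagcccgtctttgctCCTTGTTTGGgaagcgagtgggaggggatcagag
Myl9, chr2:156775214-156775463: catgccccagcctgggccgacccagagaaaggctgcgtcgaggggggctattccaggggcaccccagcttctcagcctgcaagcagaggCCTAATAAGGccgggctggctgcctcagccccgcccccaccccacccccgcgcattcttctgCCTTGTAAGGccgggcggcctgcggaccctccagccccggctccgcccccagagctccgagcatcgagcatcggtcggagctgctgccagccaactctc
In Acta2 the boxes began 84 and 34 bases before the start site, and each had 1 G or C in its core. In Myl9 they began 161 and 99 bases before it, and the first had a core of A and T alone. Of 12 contractile genes listed for this search, 9 had a promoter in the table, and 2 of the 9 (22.2%) held such a box, on either strand since the motif reads the same on both, beside 9.78% of all 27025 genes with a promoter and 8.59% of all 32851 promoter windows. With a core of A and T alone the shares were 1 of 9 (11.1%), 1.62% of genes and 1.47% of windows. A match describes the letters in this window and no binding was measured.

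The 25 genes that stood out most in VSMC over all other kept cells were headed by Rergl (Ras-related, 368-fold), Actg2 (233-fold), Myh11 (215-fold, a gene of the selection) and Tmem132d (169-fold). These folds describe how the cells differ and are not tested, since the cells were chosen by their transcripts. Of the 25, 6 were in the contractile list and 2 were genes of the selection. Actg2 apart, they were Cnn1 (calponin 1, 207 to 251 CPM), Lmod1 (leiomodin 1, which nucleates actin filaments, 247 to 269), Tagln, Myl9 and Synpo2 (226 to 247), with Myh11 and Acta2 from the selection. The transcriptional switch Myocd (myocardin) stood at 174 to 208 in VSMC, at 5.10 to 8.71 in pericytes and at 1.58 to 2.53 in other cells. Also on the list were Ryr2, the ryanodine receptor that releases stored calcium (84.8 to 108), Casq2, which buffers calcium in the store (130.3 to 226), Stac, a partner of calcium channels (111 to 146), Cabp1, a calcium-binding protein (137 to 160.2), and Kcnab1, a potassium channel subunit (655 to 764).

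Receptors on the list were Npy1r, which binds neuropeptide Y from sympathetic nerves (50.6 to 68.98 CPM), and Olfr558, a member of the olfactory receptor family (170.0 to 209.8, with 28.2 to 53.2 in pericytes). Trac, annotated as the constant region of the T-cell receptor α chain, was counted at 77.2 to 104 in VSMC and at 0 to 2.62 in pericytes, with a UMI in 44.97 to 58.9% of VSMC. The remaining genes were Nrip2 (127 to 169.9), Map3k7cl (287 to 315), the lipid kinase Dgkg (133 to 164), Mustn1 (269 to 368), Fbxl22 (101 to 141) and the RNA-binding protein Rbpms2 (189.7 to 220.1). All 25 were detected in at least 25% of VSMC in every library, as the rule asked.

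**Figure D1:**
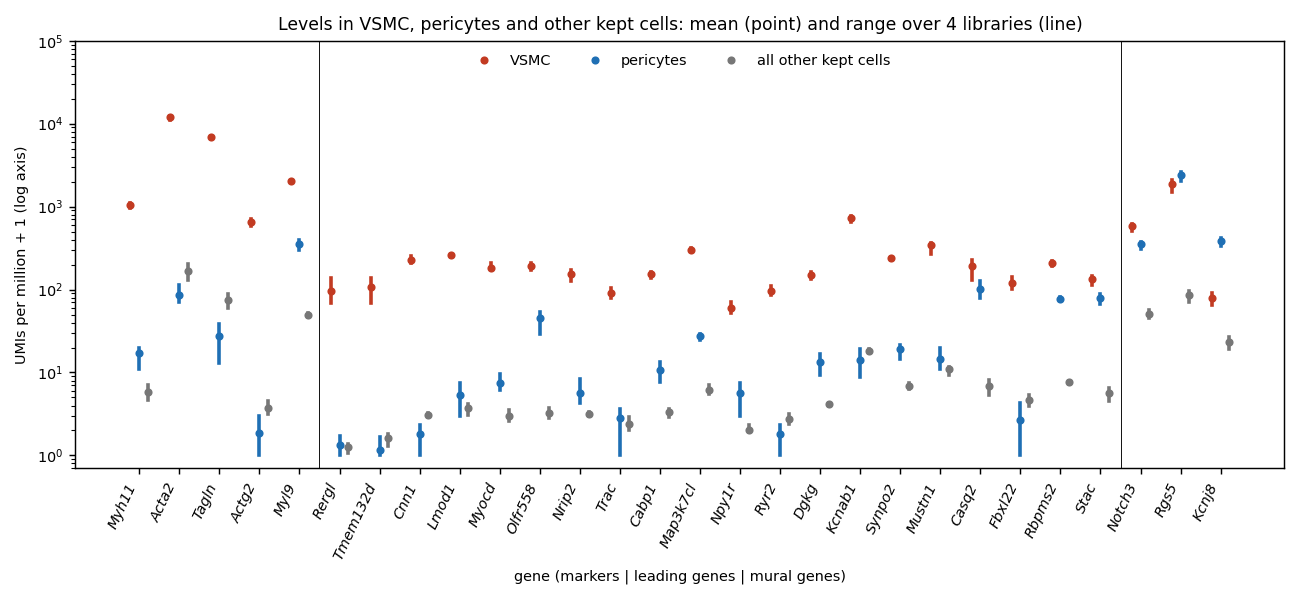
Levels of the VSMC markers, the other leading genes and 3 mural genes, as CPM plus 1 on a log axis, in VSMC (red), pericytes (blue) and all other kept cells (grey). Points are means and lines the range over the 4 libraries, and the leading genes stood above pericytes throughout, whereas Rgs5 (with overlapping ranges) and Kcnj8 had the higher mean in pericytes.

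Contractile genes were described from a list of 40 outside the selection. Of these, 37 stood at 10 CPM or more in VSMC and at 2 times the level of other kept cells or more, and 36 were higher than in pericytes. After Tagln, the highest were Myl6 (4240.0 to 4465 CPM), Cald1 (caldesmon, 2714 to 3002), the tropomyosins Tpm2 (2186 to 2381) and Tpm1 (2237 to 2378), and Myl9. Summed over the list, the level was 30924 and 31150.4 in the WT and 30150.2 and 30512 in the KO libraries, against 8359.9 to 9034 in pericytes, and the KO sums were the lower. Desmin (Des), an intermediate filament protein, was not counted among these 36, with 70.5 and 69.6 in WT against 55.3 and 57.8 in KO beside 75.96 to 114 in pericytes.

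Mural genes set the 2 classes of vessel wall cells side by side. Of 30 such genes, 24 were at least 2 times the level of other kept cells, and 15 were higher in VSMC than in pericytes. Rgs5, a brake on G-protein signalling that helped select the pericytes, stood at 1939 and 2112 in WT against 1863 and 1487 in KO CPM and at 2010.2 to 2632 in pericytes. Ndufa4l2, a mitochondrial protein induced by low oxygen, stood at 1334 to 1700.3, Ebf1 at 1159 to 1294, Aspn at 488 to 561 and Gucy1a1, a subunit of the nitric oxide receptor, at 490.2 to 534. Notch3 was higher in VSMC (505 to 619.7) than in pericytes (310.4 to 373). Kcnj8 and Abcc9, which form an ATP-sensitive potassium channel and were named here after their values were seen, were lower in VSMC, with 63.9 to 91.1 and 209 to 232 against 333 to 414 and 788 to 995.

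In the Notch list of 23 genes, 11 reached 50 CPM. Beside Notch3 the highest were Dlk1, a non-canonical ligand (956 to 1190.3 CPM, 1755 to 1906 in pericytes), the target genes Hes1 (293 to 418) and Nrarp (189 to 226), the co-activator Maml2 (186 to 232) and the ligand Jag1 (173 to 219, against 37.1 to 47.6 in pericytes). In the TGF-β and BMP list of 48 genes, 25 reached that level, led by the BMP target Id3 (731 to 856), the secreted Fstl1 (574 to 689), Ccn1 (299 to 366), the ligand Tgfb2 (238 to 311), Id2 (191 to 252, with 23.3 to 38.6 in pericytes) and the receptor Bmpr1a (160.2 to 192).

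Of 52 vasoactive genes, 21 were at least 2 times the level of other kept cells. Prkg1, the kinase by which cyclic GMP relaxes smooth muscle, stood at 1989 to 2179 CPM, Rgs5 as above, Pde3a, which degrades cyclic AMP, at 1014 to 1134, Gucy1a1 as above, and the kinases Rock2 and Rock1, which sustain contraction, at 480.0 to 493 and 468 to 503. Of 43 channel and transporter genes, 24 were at least 2 times the level of other kept cells. The highest were the sodium-calcium exchanger Slc8a1 (415 to 611), the calcium channel subunits Cacnb2 (364 to 480.0) and Cacna1c (247 to 307), the calcium pumps Atp2a2 (285 to 322) and Atp2b1 (252 to 298), and the gap junction gene Gjc1 (271 to 294, with 561 to 711 in pericytes).

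Among 62 transcriptional regulators the highest levels were those of Ebf1, Zeb2 (849 to 1126 CPM), Mef2c (724 to 953, against 305 to 374 in pericytes), Nr2f2 (524 to 669), Zfhx3 (489 to 561) and Mef2a (348 to 409). Of 52 matrix genes, 5 stood at 2 times the level of other kept cells or more. Sparc (2554 to 2983), Eln (elastin, 1467 to 2395), Col4a1 of the basement membrane (974 to 1158), Col3a1 (961 to 1248), Col1a2 (604 to 733) and Col1a1 (598 to 687) were the most abundant. Elastin stood out, with 18.2 to 64.2 in pericytes and 172 to 236 in other cells. Among 61 growth factor genes, Igfbp7 (1454 to 1791), Igfbp5 (1292 to 1362), Igf2 (572 to 674), Ncl (nucleolin, 469.9 to 519), Igf2r (414 to 433) and Sema5a (318 to 373) were the highest.

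VSMC were not uniform. Clustering of the 636 cells, with the selection genes and the sex-linked genes left out and each library centred, gave 4 sub-clusters of 255, 153, 126 and 102 cells. Each was found in every library. Their leading genes are descriptions, since the same cells defined them, and no vessel type is assigned to any of them.

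Sub-cluster 1, the largest, was led by Opcml, Grp, Casq2, Ccdc85a, Frmd4b, Reln (a secreted guidance protein), Adamts16 and Art3. Tagln (3625 CPM) and Actg2 (176) were at their lowest there, and Rgs5 was at its highest, 2243. Elastin was low, 222 against 5317 in sub-cluster 2.

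Sub-cluster 2 was led by Acta1, Ntrk3, Sncg, Pi15, Sorbs2, Col8a1, Ltbp1 (which tethers latent TGF-β to the matrix) and Gja5 (a gap junction protein of arteries). It held the highest levels of Acta2 (18632 CPM), Tagln (14401), Myh11 (1898), Cnn1 (487) and Lmod1 (509), and the lowest of Rgs5 (947). These cells were 24.1% of the VSMC and gave 57.6% of the elastin UMIs.

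Sub-cluster 3 was led by Gstm1, the chemokine Ccl11, Mfap5, Ccn3, Colec11, Elmod1, Postn and Dcn, and Col3a1 was at 2889 CPM there against 471 in sub-cluster 1. Kcnj8 (162) and Abcc9 (411) were at their highest in it, as were Mgp (matrix Gla protein, a calcification inhibitor, 808) and Igfbp2 (362), while Actg2 (1128) was close to its level in sub-cluster 2. Postn, Dcn and Mfap5 are also FAP genes. Sub-cluster 4 was led by genes of cell division, Ube2c, Cenpf, Hmmr, Birc5, Top2a, Hist1h1b, Mki67 and Cenpe, and its cells held the most UMIs, with a median of 13640 UMIs against 9250 in sub-cluster 2. Their Myh11 level was 750.4.

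The 4 sub-clusters took similar shares in each library. Sub-cluster 1 took 45.5 and 35.7% of VSMC in WT and 43.6 and 32.4% in KO, and sub-cluster 2 took 22.2 and 21.7% in WT and 23.5 and 29.5% in KO. Sub-cluster 3 took 16.9 and 24.8% in WT and 18.4 and 20.9% in KO, and sub-cluster 4 took 15.3 and 17.8% in WT and 14.5 and 17.3% in KO. Sub-clusters 1, 3 and 4 thus overlapped between the genotypes, and sub-cluster 2 was higher in both KO libraries by a margin smaller than the gap between them.

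**Figure D2:**
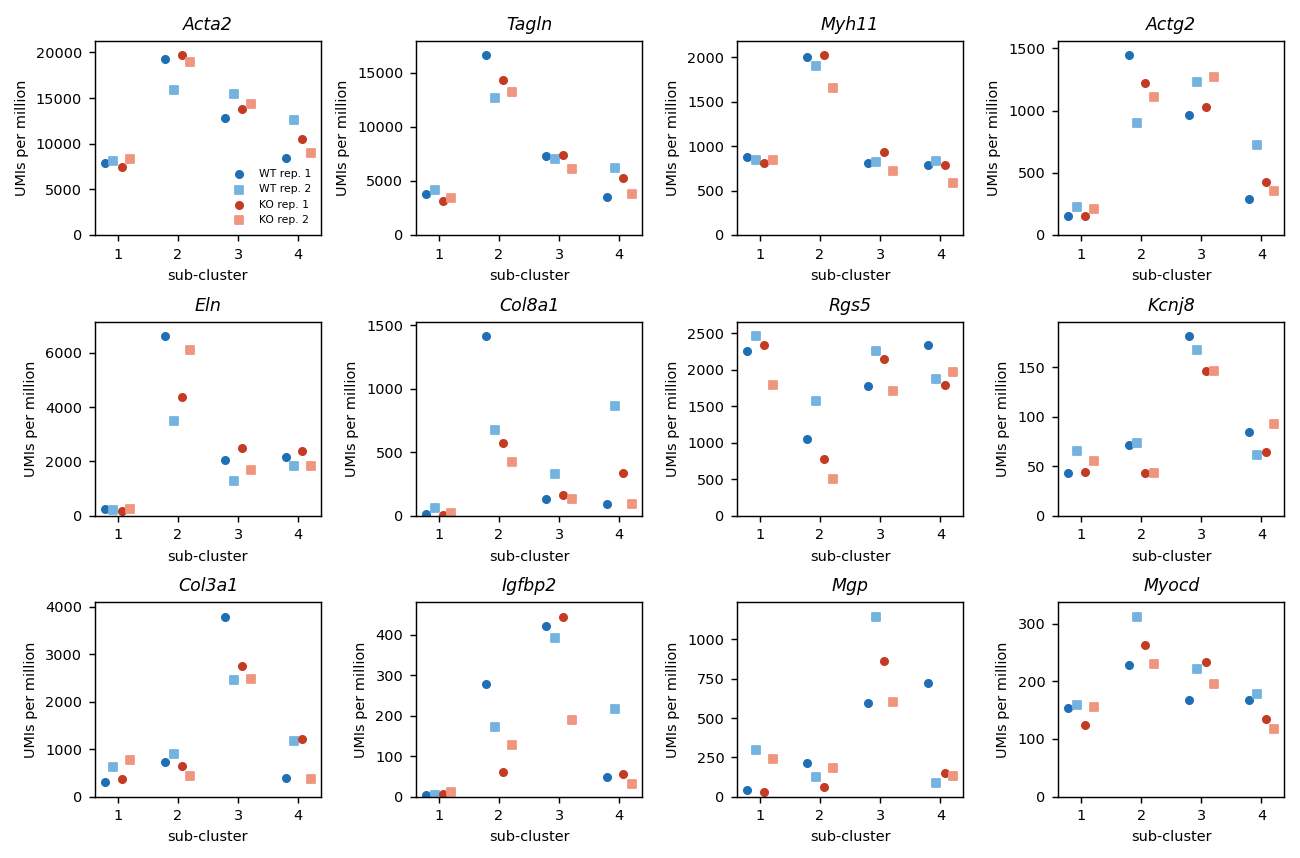
CPM of 12 genes (each panel with its own linear axis from 0) in the 4 sub-clusters of VSMC, with 1 point for each library (WT blue, KO red; circles replicate 1, squares replicate 2). Over the summed libraries, contractile genes and Eln peaked in sub-cluster 2, Kcnj8, Col3a1, Igfbp2 and Mgp in sub-cluster 3, and Rgs5 was lowest in sub-cluster 2. In WT replicate 2 and KO replicate 2, Actg2 was higher in sub-cluster 3 (1230 and 1271) than in sub-cluster 2 (897 and 1107).

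Whether KO changed the number of VSMC was asked first. They made up 2.22% (95% confidence interval 1.92 to 2.56, exact binomial) and 1.58% (1.32 to 1.87) of kept cells in WT replicates 1 and 2. In KO replicates 1 and 2 they made up 1.82% (1.57 to 2.11) and 1.33% (1.12 to 1.57). These intervals cover counting error only. The means were 1.90 ± 0.454% in WT and 1.58 ± 0.350% in KO (SD, n = 2 each), a difference of −0.322 percentage points that lay within the gap between libraries of a genotype (exact permutation test, two-sided, p = 0.667, the smallest p that 4 libraries allow being 0.3333). Without WT replicate 1 the difference was −0.00145 points and without KO replicate 2 it was −0.0751 points.

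Set against pericytes, VSMC numbered 122 and 95.6 per 100 pericytes in WT and 109.8 and 88.0 in KO, with means of 109 ± 18.7 in WT and 98.9 ± 15.4 in KO (exact permutation test, two-sided, p = 0.667). The ranges overlapped. The sign of this difference of −9.85 turned without WT replicate 1 (+3.34) and without KO replicate 2 (+1.07).

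A cell was called cycling when it held at least 2 UMIs from 15 genes of S phase and mitosis after thinning to 3000 UMIs. This was so for 19.7 and 26.6% of VSMC in WT and 25.8 and 26.3% in KO, and for 31.8 to 32.3% of pericytes in WT and 25 and 35.5% in KO. The VSMC shares overlapped between genotypes (means 23.1 ± 4.87% in WT and 26.1 ± 0.307% in KO, SD, n = 2, exact permutation test, two-sided, p = 1). Without thinning, where WT cells were the deeper, the shares were 34.4 and 49.6% in WT and 43.6 and 38.8% in KO, and the difference turned from +2.94 to −0.790 points.

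**Figure D3:**
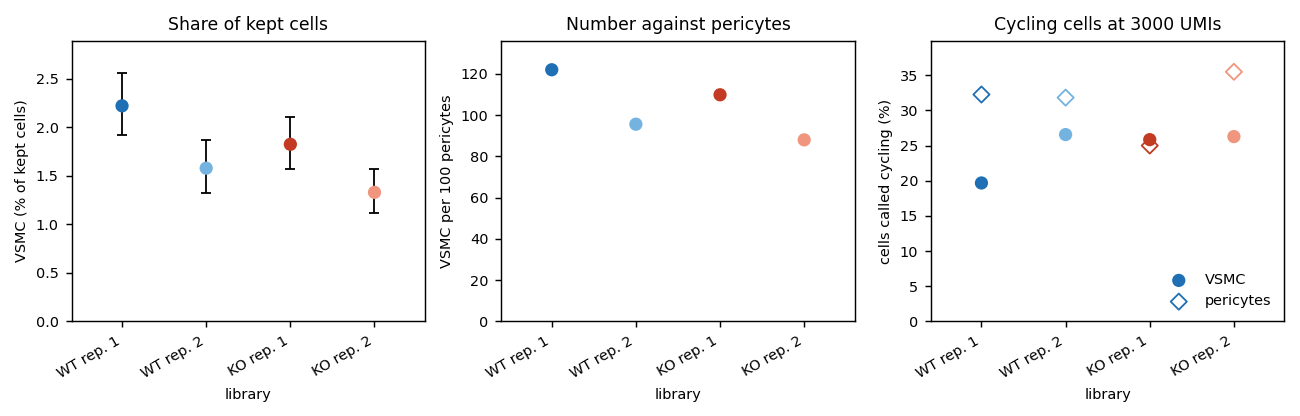
VSMC as a percentage of kept cells (left, bars show 95% exact binomial intervals), VSMC per 100 pericytes (middle), and cells called cycling at 3000 UMIs a cell (right, VSMC as filled circles and pericytes as open diamonds), each by library with axes from 0. WT (blue) and KO (red) libraries overlapped in all 3 measures of VSMC.

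Expression in KO and WT VSMC was compared over 10355 genes with edgeR's quasi-likelihood test on summed UMIs, 2 libraries against 2. A single gene fell in KO (1 of 10355, 0.00966%) at an adjusted p under 0.05, and 0 rose (0%). DESeq2 gave the same counts. At an unadjusted p under 0.05, 202 genes were higher (1.95%) and 249 lower (2.4%) in KO. KO replicates 1 and 2 were each above the higher WT library for 1584 genes (15.3%) and each below the lower one for 1781 (17.2%), so that groups that do not overlap were common among all genes.

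The gene that fell was Col8a1, which encodes the α1 chain of collagen VIII, a short-chain collagen laid down by VSMC and endothelial cells (chr16:57624258-57754737 on GRCm38, minus strand). It stood at 344 and 426 in WT against 217 and 164 in KO CPM, the KO libraries both below the WT libraries. The log2 fold change was −0.999 ± 0.13 (SE), with an adjusted p of 0.0076 by edgeR. It fell in each comparison that left out a library, by 0.83 on the log2 scale without KO replicate 2 to 1.21 without KO replicate 1. With looser limits on the cells the size was the same (−0.99) and the adjusted p 0.0993, so that no gene passed.

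Few cells carried Col8a1. Its UMIs numbered 747 and 674 in WT against 380 and 253 in KO, and the cells that carried them 54 and 45 in WT against 34 and 44 in KO. The 5 cells with the most held 44.2% and 43.5% in WT against 49.5% and 30.4% in KO. With these 5 left out of each library the levels were 199 and 254 in WT against 114 and 119 in KO CPM, with the KO libraries still below both WT libraries. At 3000 UMIs a cell, the share of VSMC with a UMI was 19.1 and 30.5% in WT against 15.2 and 21.2% in KO, and here KO replicate 2 lay above WT replicate 1. Pericytes gave 0 to 2.27%.

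Most Col8a1 came from sub-cluster 2, which gave 60.6% of its UMIs. There the level was 1416 and 677 in WT against 572 and 426 in KO, and the KO libraries were again the lower. The genotypes overlapped in the other sub-clusters. Sub-cluster 4 gave 23.8% of the UMIs, at 91.8 and 863 in WT against 338 and 95.9 in KO. In sub-cluster 3 it was 131 and 327 in WT against 161 and 128 in KO, and in sub-cluster 1 it was 11.9 and 63.7 in WT against 2.62 and 24.6 in KO. Elastin, which peaked in the same cells, did not pass the test, at 2281 and 1467 in WT against 1877 and 2395 in KO over all VSMC with a log2 fold change of 0.19 ± 0.16 and an adjusted p of 0.998 by edgeR, and its WT and KO libraries overlapped.

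Other genes were below the threshold of the test. Those of smallest unadjusted p with a mean of at least 20 CPM and no overlap are given as not passing. Lower in both KO libraries were Igfbp2, which binds insulin-like growth factors (142 and 179.6 in WT against 95.8 and 82.4 in KO, log2 fold change −0.83 ± 0.14, adjusted p = 0.0823 by edgeR), Ifitm3, an interferon-induced membrane protein (−0.51, adjusted p = 0.426), and Nmnat2, an NAD-synthesising enzyme (−1.20, adjusted p = 0.426). Fst (follistatin, which binds activins and myostatin) stood at 29.5 and 29.1 in WT against 14.3 and 13.6 in KO, with a log2 difference of −1.06. Fmod (fibromodulin, −0.77) and Mgp (−0.63) encode matrix proteins, and Mgp stood at 304 and 423 in WT against 188 and 278 in KO. Gm42418 stood at 7388 and 7949 in WT against 5908 and 5945 in KO (−0.36). Without each library in turn Igfbp2 gave −0.99 to −0.67, and with doublets removed it gave −0.66 (adjusted p = 0.997 by edgeR). Mgp gave −0.95 without KO replicate 2. Igfbp2, Fst and Mgp all peaked in sub-cluster 3, which gave 55.6, 82.1 and 52.8% of their UMIs.

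Col2a1, a cartilage collagen, had the largest such difference (−3.45), and its level rested on WT replicate 2, at 7.37 and 66.4 in WT against 1.71 and 4.54 in KO. In other kept cells it ranged from 88.8 to 735, and the summed chondrocyte markers in VSMC were 90.3 and 168 in the WT and 92.4 and 101 in the KO libraries. Without WT replicate 2 the log2 fold change was −1.25. The part of RNA from other cells in this value was not tested.

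Higher in both KO libraries were Btg2, an anti-proliferative gene that also responds to stress (345 and 365 in WT against 479 and 527 in KO, log2 fold change 0.51 ± 0.10, adjusted p = 0.244 by edgeR), the protocadherins Pcdh10 (19.3 and 16.4 in WT against 36.5 and 44.1 in KO, 1.15, adjusted p = 0.256) and Pcdh9 (0.80), and Rasd1, a Ras-like protein induced by glucocorticoids (35.9 and 40.5 in WT against 69.6 and 56.5 in KO, 0.74). Ptn (pleiotrophin, a secreted growth factor) stood at 64.95 and 110.0 in WT against 148 and 129.8 in KO (0.71), Acta1 (skeletal α-actin) at 47.4 and 53.1 in WT against 63.9 and 116 in KO (0.84), Celf2 at 52.5 and 49.96 in WT against 65.6 and 101 in KO (0.69) and Nrk at 58.96 and 44.9 in WT against 74.1 and 91.5 in KO (0.65). None of these passed, with adjusted p from 0.244 to 0.860 by edgeR. Without KO replicate 2 the log2 fold change of Acta1 was 0.35, that of Celf2 0.35 and that of Pcdh9 0.52, and Celf2 stood at 0.26 with doublets removed and 0.33 with more exclusion genes. Btg2 was the 1 of these 16 genes, both directions counted, that passed when the lower limits of the selection were relaxed to 1 UMI of Myh11 and 3 of Acta2 (adjusted p = 0.0159 by edgeR). With no filter on low counts 15 of the 16 passed.

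Values that moved with some of these genes are given here. Ptn, Celf2 and Nrk were much higher in other kept cells (1176 to 1315, 668 to 841 and 782 to 827 CPM), while the 10 FAP markers summed in VSMC to 1486 and 1523 in the WT and 1391 and 1556 in the KO libraries, with overlap. Myogenic markers summed to 105 and 111 in the WT and 107 and 176 in the KO libraries. Acta1 is part of these sums, so they do not stand apart from its own levels given above. Acta1 also led sub-cluster 2, at 236 CPM against 20.7 in the other VSMC. The 28 genes of the dissociation and stress response, Btg2 among them, summed to 11211 and 11457 in the WT and 11689.7 and 13155 in the KO libraries. Of the 28, 12 lay higher and 3 lower in both KO libraries, beside 15.3% and 17.2% of all tested genes. Their median log2 fold change was 0.16. At an unadjusted p under 0.05 by edgeR, 6 of the 28 were higher and 1 lower in KO, beside 1.95% and 2.4% of all tested genes. By the adjusted p, 0 of the 28 passed the test. The part of these in the results was not tested.

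**Figure D4:**
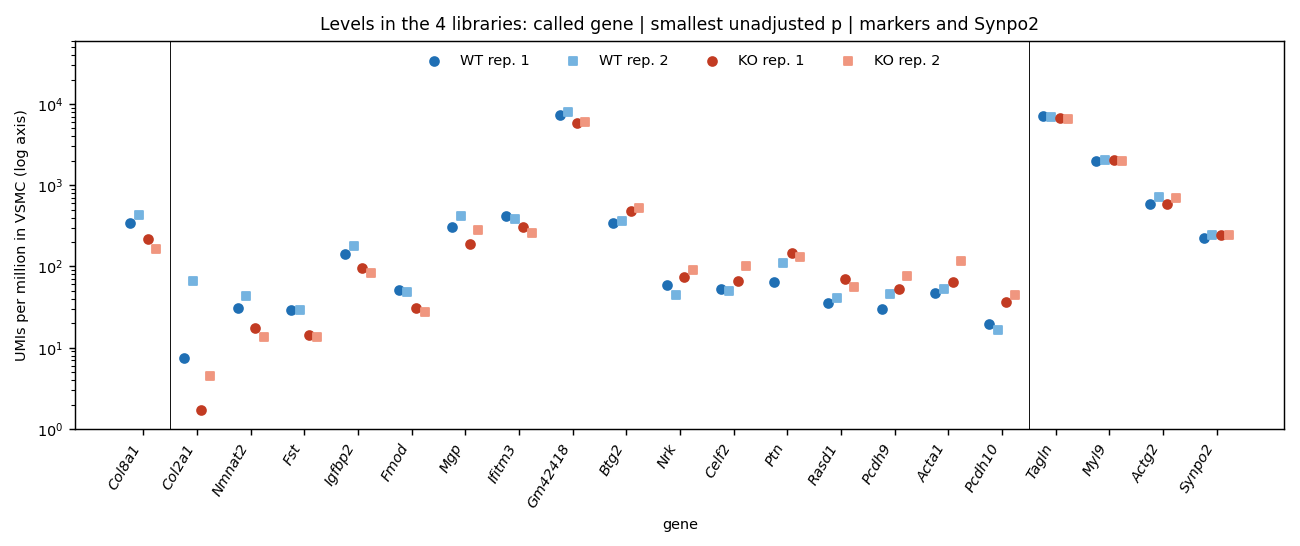
CPM in VSMC, on a log axis, of the gene that passed the test (left), the 16 genes of smallest unadjusted p that did not pass (middle) and 3 markers with Synpo2 (right), with 1 point for each library (WT blue, KO red; circles replicate 1, squares replicate 2). Col8a1 stood at 344 and 426 (WT) and 217 and 164 (KO), and the markers and Synpo2 lay within a narrow band.

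The gene lists are taken in turn, contractile genes first. Of the 39 contractile genes tested, 5 lay higher and 7 lower in both KO libraries than in both WT libraries, and their median log2 fold change was −0.02. Over all tested genes these shares were 15.3% and 17.2% and the median −0.0016, values to be set beside each list below. By edgeR, 0 of the 39 passed, and 0 had an unadjusted p under 0.05. Tagln gave −0.073 ± 0.09, Myl9 0.0029 ± 0.09 and Actg2 −0.024 ± 0.11 (log2, SE), each with adjusted p of at least 0.998. The 3 of smallest p were Des (−0.30 ± 0.15), Itga8, an integrin that links smooth muscle to the matrix (0.26 ± 0.14), and Smtn (smoothelin, 0.27 ± 0.15).

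The selection genes themselves are given as values only. Myh11 stood at 1089 and 1035 in WT against 1095 and 966 in KO CPM and Acta2 at 11216 and 12432 in WT against 11726 and 12441 in KO, with the genotypes overlapping in both.

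Of the 30 mural genes tested, 0 lay higher and 6 lower in both KO libraries than in both WT libraries, and their median log2 fold change was −0.07. Those of smallest p were Epas1, a transcription factor of the response to low oxygen (141 and 133 in WT against 108 and 97.4 in KO, −0.41 ± 0.12, adjusted p = 0.931 by edgeR), Rgs5 (−0.27 ± 0.10, adjusted p = 0.998) and Higd1b (−0.35 ± 0.17). Of the 49 matrix genes tested, 3 lay higher and 16 lower in both KO libraries than in both WT libraries. Over all tested genes these shares were 15.3% and 17.2%. The median log2 fold change of the 49 was −0.02. At an unadjusted p under 0.05 by edgeR, 7 of the 49 were lower and 0 higher, beside 2.4% and 1.95% of all tested genes. Col8a1 was among the 7 and was the 1 that passed. Next to it came Mgp (−0.63 ± 0.16, adjusted p = 0.84 by edgeR) and Col5a3, a chain of collagen V (29.9 and 35.4 in WT against 14.8 and 19.5 in KO, −0.92 ± 0.24, adjusted p = 0.84). Both lay lower in both KO libraries.

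Of the 15 Notch genes tested, 3 lay higher and 5 lower in both KO libraries than in both WT libraries, and their median log2 fold change was 0.06. Dlk1 (−0.21 ± 0.09), the protease Adam17 (0.49 ± 0.22) and Maml2 (−0.22 ± 0.11) had the smallest p, with adjusted p of 0.998 each by edgeR. Of the 42 TGF-β and BMP genes tested, 2 lay higher and 10 lower in both KO libraries than in both WT libraries, and their median log2 fold change was −0.05. After Fst, Smad2, a signal carrier of TGF-β (72.8 and 84.1 in WT against 57.6 and 61.01 in KO, −0.39 ± 0.15), and its receptor Tgfbr1 (81.1 and 89.8 in WT against 74.1 and 56.5 in KO, −0.37 ± 0.16) were lower in both KO libraries, each with an adjusted p of 0.998 by edgeR. Of the 39 vasoactive genes tested, 3 lay higher and 7 lower in both KO libraries than in both WT libraries, and their median log2 fold change was −0.05, and the 3 of smallest p were Pde1a, which degrades cyclic nucleotides (−0.47 ± 0.14, adjusted p = 0.931 by edgeR), Rgs5 and the sphingosine receptor S1pr1 (−0.87 ± 0.37).

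Of the 38 channel genes tested, 4 lay higher and 10 lower in both KO libraries than in both WT libraries, and their median log2 fold change was −0.06. Kcnk3, a potassium channel that sets the resting potential, stood at 58.96 and 84.1 in WT against 51.3 and 49.3 in KO (−0.48 ± 0.18), Kcna5 at 20.7 and 13.9 in WT against 21.7 and 33.1 in KO (0.62 ± 0.28) and Cacnb2 gave −0.20 ± 0.11. Of the 45 regulator genes tested, 7 lay higher and 8 lower in both KO libraries than in both WT libraries, and their median log2 fold change was −0.00088. Tshz3 (0.63 ± 0.19, adjusted p = 0.931 by edgeR), Hopx (−0.35 ± 0.12, adjusted p = 0.964) and Mef2c (805 and 724 in WT against 953 and 853 in KO, 0.25 ± 0.10) had the smallest p. Of the 46 growth factor genes tested, 12 lay higher and 10 lower in both KO libraries than in both WT libraries, and their median log2 fold change was 0.01. At an unadjusted p under 0.05 by edgeR, 5 of the 46 were higher and 4 lower, beside 1.95% and 2.4% of all tested genes. Behind Igfbp2 came Ptn and Igf1, which stood at 7.37 and 23.4 in WT against 37.1 and 30.5 in KO (1.24 ± 0.34, adjusted p = 0.86 by edgeR) and at 648 to 837 in other kept cells. Without KO replicate 2 the log2 fold changes of further named genes of these lists moved by over 1.5 times: Actg2 to −0.17, Rgs5 to −0.12, Dlk1 to −0.32, Tgfbr1 to −0.20, Cacnb2 to −0.11, Kcna5 to 0.29 and Hopx to −0.23. Myl9 changed sign.

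Over all tested genes 15.3% lay higher and 17.2% lower in both KO libraries. Of 34 cell-cycle genes, 7 lay higher and 2 lower (median log2 fold change 0.04), and of 30 ribosomal protein genes 14 lay higher and 0 lower, with a median of 0.07. Of these 30, 0 had an unadjusted p under 0.05 by edgeR. Their summed level overlapped between genotypes, at 62937 and 58963 in WT against 62825 and 64269 in KO CPM. Among 14 genes of cell-cycle exit, 2 lay higher and 2 lower (median 0.04).

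**Figure D5:**
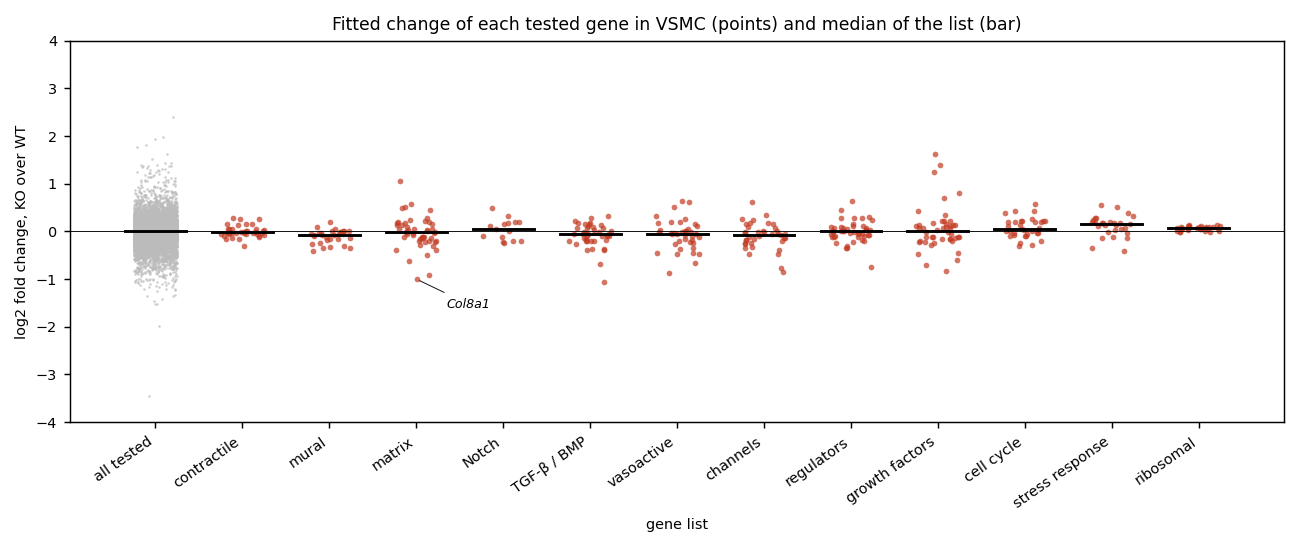
Fitted log2 fold change of KO over WT in VSMC for all tested genes (grey) and for the members of 12 gene lists (red), with 1 point for each gene and a bar at the median. List medians ran from −0.07 to 0.16, and Col8a1, at −0.999, is labelled in the matrix list.

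SYISL itself was not analysed here, and its host gene was examined instead. Synpo2 (chr3:123076519-123236149, minus strand), an actin-binding protein of muscle, stood at 226 and 247 in WT against 246 and 244 in KO CPM in VSMC, with 13.4 to 20.4 in pericytes and 5.29 to 6.52 in other cells. Its log2 fold change was 0.061 ± 0.10 (adjusted p = 0.998 by edgeR), and the libraries overlapped. Reads from an RNA transcribed in the sense direction within a Synpo2 intron cannot be told apart from Synpo2 in this table. Of 11 genes in and around this locus, 9 were tested, and none passed the test by edgeR. At an unadjusted p under 0.05, 2 were higher and 0 lower, beside 1.95% and 2.4% of all tested genes. In both KO libraries 4 lay higher and 0 lower, beside 15.3% and 17.2% of all tested genes. The 4 were Usp53 (39.2 and 44.9 in WT against 52.5 and 58.4 in KO, 0.41 ± 0.17), Ndst3 (22.1 and 22.8 in WT against 32.5 and 31.8 in KO, 0.53 ± 0.22), Mettl14 (0.59 ± 0.31) and Sec24d (0.19 ± 0.13). Pde5a, which degrades cyclic GMP, stood at 196 and 173 in WT against 173 and 158 in KO. Snhg8 and 1810037I17Rik ranged from 156 to 168 and from 217 to 278, Prss12 and Myoz2 from 6.91 to 15.8 and from 1.14 to 2.53, and Fabp2 was counted 0 times in VSMC.

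Pericytes of the same libraries were the closest cells for comparison. In them 0 of 9946 genes (0%) passed the edgeR test, with 206 higher and 184 lower in KO at an unadjusted p under 0.05, and DESeq2 also called 0. Col8a1 was too low in pericytes to be tested there, at 0.650 to 14.1 CPM. In the test of the difference itself, with the library as a block, the KO effect was more negative in VSMC for 3 of 10838 genes (0.0277%) and more positive for 0 (0%). The 3 were Tnmd, Fst and Olfr1033. DESeq2 called 0 genes, and the pericytes of a library held only 2 to 21 UMIs of each of the 3.

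Markers of other cell types are given as summed CPM over each list. The 9 endothelial markers summed to 237 and 238 in the WT and 212 and 231 in the KO libraries, of which Esam, a junction protein named after its values were seen and at 163 to 195 in pericytes, gave 179.8 to 219, and Cdh5 was at 0 by the selection. In other kept cells these 9 summed to 255 to 353, and the FAP markers given above to 12835 to 13956. The 10 macrophage markers summed to 24.9 and 102 in the WT and 11.03 and 195 in the KO libraries, the 7 mast cell markers to 26.7 and 27.2 in the WT and 25.96 and 38.8 in the KO libraries, with Fcer1a and Ms4a2 at 0, and the 6 neutrophil markers to 4.43 and 228 in the WT and 1.14 and 4.54 in the KO libraries, with Ly6g at 0. The 8 glial markers summed to 159 and 188 in the WT and 164 and 205 in the KO libraries, the 7 tenocyte markers to 248 and 273 in the WT and 208 and 232 in the KO libraries and the 6 erythroid markers to 8.29 and 13.9 in the WT and 6.49 and 6.84 in the KO libraries. Myog and Mymk were the myogenic markers at 0. The 8 pericyte markers summed to 4328 and 4474 in the WT and 3529 and 4125 in the KO libraries, against 5164 to 6479.7 in pericytes and 372 to 421 in other kept cells. Pericyte, endothelial, tenocyte and erythroid sums were the lower ones in KO, with no overlap, as were 17.2% of all tested genes. Rgs5 is part of the pericyte sum, Esam of the endothelial sum, and Tnmd and Thbs2 of the tenocyte sum. The part of RNA from other cells in these sums was not tested. Macrophage markers differed more between replicates of a genotype than between genotypes. The neutrophil sum was high in WT replicate 1 alone (228).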

How the data were processed

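Single-cell 3′ libraries (10x Chromium v3) of leg muscle from WT and KO fetuses at E18.5 were analysed, 2 of each. Per the labels, the authors made the deposited UMI counts per gene and cell with Cell Ranger 7.2.0 on mm10. Values are whole counts, not normalized, and 32285 genes were listed. Cells were kept by the limits of the study's methods. The study reported fewer cells after its own filtering than the 36969 kept here, so the sets are not the same. No deposited annotation of cells was used.

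Counts were summed over the VSMC of each library and tested with edgeR 4.0.16 (TMM factors, quasi-likelihood F test, Benjamini-Hochberg adjustment, R 4.3.3), with genes filtered on low counts by filterByExpr. Shares were compared by an exact permutation test (6 possible arrangements). Alternatives were DESeq2 1.42.0, RLE factors, other filters, other cell choices, a block for the replicate number, and fits lacking 1 library. Doublets were called with Scrublet (scanpy 1.11.5) and kept. Sub-clusters used Leiden clustering (resolution 0.3) of 15 principal components of 1000 variable genes. The test was checked on simulated counts.

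The VSMC and the gene lists were chosen with earlier results of these data known. Genes were named when they belonged to the selection or the markers, were among the 6 highest of a list (at least 50 CPM) or its 3 smallest p, passed the test, were among the 8 smallest unadjusted p in each direction (at least 20 CPM, no overlap), were among the 25 leading genes, lay near Synpo2, or were among the 8 that led a sub-cluster. The relaxed CArG core was added after the promoters were seen. Promoter sequences are from RefSeq (GRCm38.p6), and gene coordinates from GENCODE vM21 (GRCm38, matched by Ensembl ID for 32158 genes). Ccl19, carried by 2 features, was left out of its list.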

Additional observations from a re-analysis of the deposited data

Results flagged for a closer look

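Results marked here are genes whose difference between KO and WT was not the same in VSMC as in pericytes, by the edgeR test of that difference with the library as a block. Tnmd, a tendon membrane protein, had a difference of −3.003 ± 0.50 on the log2 scale (adjusted p = 0.0293). In VSMC it stood at 91.7 and 113 in WT against 86.7 and 90.2 in KO CPM. In pericytes its UMIs numbered 3 and 3 in WT against 20 and 21 in KO, and 1 pericyte held 18 of the 20 in KO replicate 1. With cells marked as doublets removed the difference was −1.06 (adjusted p = 1).

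Fst, follistatin, had a difference of −3.39 ± 0.57 (adjusted p = 0.0293 by edgeR). In VSMC its UMIs numbered 64 and 46 in WT against 25 and 21 in KO, and 5 cells held 71.4 to 80% of those of a library. In pericytes they numbered 5 and 2 in WT against 20 and 14 in KO, and the cells that carried them 3 and 2 in WT against 12 and 5 in KO. Fst had the same sign without each library in turn, from −4.14 to −2.92.

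Olfr1033, a gene of the olfactory receptor family, had a difference of −3.98 ± 0.72 (adjusted p = 0.0496 by edgeR). Its UMIs numbered 48 and 36 in WT against 25 and 8 in KO in VSMC and 2 and 2 in WT against 12 and 15 in KO in pericytes, where 1 cell held 13 of the 15 of KO replicate 2. DESeq2 gave differences of the same sign for all 3 genes with adjusted p of 0.969 to 1.00.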

How the results depend on the processing

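The share of kept cells that were VSMC was lower in KO under all 7 other cell choices (difference −0.398 to −0.243 percentage points) and without each library in turn (−0.643 to −0.00145). VSMC per 100 pericytes stayed lower in KO under the 4 other cell choices, and the leave-one-out values ran from −23.0 to 3.34. The cycling share turned to −0.790 points without thinning, and ran from −0.502 (without WT replicate 1) to 6.38 (without WT replicate 2) when a library was left out. No p in these 3 measures could fall below 0.3333 with 4 libraries.

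In VSMC 1 gene passed in the comparison as reported, 2 with the looser selection (Col8a1 and Btg2), 0 with the looser cell filter and 55 with no filter on low counts. Among the 55 were the sex-linked Xist and Uty and the neutrophil markers S100a8, S100a9 and Retnlg. Leaving out 1 library gave 32 (without KO replicate 2) to 59 (without KO replicate 1) genes, 47 without WT replicate 2 and 54 without WT replicate 1. Each of these fits that kept KO replicate 2 had Xist among its genes. In all fits without a library the lone sample of a group is assumed to vary like the other group. Col8a1 passed in all of them and in every other setting except the looser cell filter. In pericytes 0 genes passed under 5 other settings, and 1 to 34 without a library. The difference between the classes called 33 genes with no filter, 0 by DESeq2, and 18 to 40 without a library. With the replicate number as a block 17 genes passed in VSMC (8 higher, 9 lower), Col8a1 and 10 of the 16 genes of smallest p among them (Igfbp2, Ifitm3, Nmnat2, Mgp, Col2a1, Btg2, Pcdh10, Ptn, Acta1 and Pcdh9), and 17 in pericytes (15 higher, 2 lower), but deviations of libraries with the same number correlated at −0.038 in VSMC and 0.101 in pericytes over 2 pairs, and although WT and KO fetuses were littermates per the study, no source ties a replicate number to a litter or day, so the numbers were not taken to pair the libraries.

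Of 44 named genes with a fitted change, 40 kept their direction in every setting. Actg2 turned to 0.015 with doublets removed, 0.0089 with the looser cell filter, 0.033 with the stricter rule, 0.046 with the rule per 10000 UMIs and 0.072 with more exclusion genes, and ran from −0.17 to 0.11 without a library (above 0 without WT replicate 2 and without KO replicate 1). Myl9 turned to −0.0032 with the stricter filter and ran from −0.0031 (without WT replicate 2) to 0.014 without a library (−0.0012 without KO replicate 2), Tagln turned to 0.035 with the stricter rule, and Tnmd to 0.0091 with doublets removed. The cause of these was not tested. Sums of 1540817 to 2170790 UMIs a library and 2 libraries a group limit which low genes can be compared.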

Other observations

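Several genes known as markers of other tissues were counted in VSMC of all 4 libraries, and other markers of those tissues are given beside them. Fabp7, a fatty-acid-binding protein of glia, stood at 181 and 154 in WT against 196 and 111 in KO CPM and at 22.3 to 69.98 in pericytes, with a UMI in 30.2 to 41.1% of VSMC, and the glial gene Sox10 stood at 0.461 to 0.649. Acan (aggrecan, a cartilage proteoglycan) stood at 74.2 and 79.1 in WT against 83.8 and 76.6 in KO and at 0.650 to 18.8 in pericytes, with a UMI in 37.0 to 41.1% of VSMC, while the cartilage genes Col9a1 and Sox9 stood at 1.14 to 5.84 and 2.30 to 7.14, and Col2a1 at 1.71 to 66.4, the highest in WT replicate 2. Tnmd was found in 43.4 to 48.2% of VSMC, and at 3000 UMIs a cell in 21.3 to 22.6% of VSMC and 0.625 to 2.58% of pericytes. The tendon transcription factors Scx and Mkx stood at 0 to 3.89 and 1.14 to 3.23. Tnmd was present in all 4 sub-clusters, from 69.9 to 125 CPM. Thbs2, also on the tenocyte list, stood at 83.2 to 96.7, with a UMI in 36.9 to 51.9% of VSMC, and at 24.7 to 61.6 in pericytes. These genes were named after their values were seen, and the WT and KO values of Fabp7, Acan and Thbs2 overlapped.

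Hspb1, a small heat-shock protein, stood at 521 and 486 in WT against 451 and 547 in KO in VSMC, at 70.1 to 89.8 in pericytes and at 50.3 to 67.3 in other kept cells. Ccnd2, a cyclin of the G1 phase, stood at 489.7 and 466 in WT against 485 and 446 in KO, against 241 to 322 in pericytes, and Cdkn1c, a cell-cycle inhibitor, at 319.7 and 359.9 in WT against 319.8 and 419 in KO, against 2945 to 3289 in other kept cells. The genotypes overlapped for Hspb1, Ccnd2 and Cdkn1c alike.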
